A study of Daphnia magna with 12 samples.

Results

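In Daphnia magna, a water flea much used in toxicity tests, 40 genes measured in whole-body RNA were higher after C2mimCl and after CholCl than in control animals while staying near the control level after C12mimCl. They were chosen from 20266 gene rows with 10 or more reads (of 46334 gene rows in all) by the median of 3 libraries in each group. A member had a median of at least 5 CPM (CPM is a read count scaled to a common library size, here with TMM factors) after both C2mimCl and CholCl. Each of these medians, plus 0.1, was at least 2 times the control median plus 0.1, and the C12mimCl ratio lay above 0.5 and below 1.5. Ratios between libraries below likewise add 0.1 CPM to each value. The choice rests on the measured values, so the members' height over control is a description. Tests against control given below are not independent of the choice and are no evidence for that height.

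Neonates under 10 h old at the start were kept without food for 48 h in blank ASTM medium (control) or in that medium with C2mimCl (1-ethyl-3-methylimidazolium chloride), C12mimCl (the 1-dodecyl counterpart) or CholCl (cholinium chloride), each at its EC20, the concentration giving 20% of an effect. No source used here gives the endpoint or the molar doses, so the salts are matched by effect level and not by concentration. Each group had 3 libraries, and each library was a pool of 90 animals still active in its own vessel of 120, so the values leave out animals that were not active. No source used here gives the strain or sex. In whole-body RNA a change per cell and a change in the number of cells of a type cannot be told apart.

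C2mimCl and C12mimCl carry the same positively charged methylimidazolium ring and differ in the alkyl chain, short in the former and long in the latter. Long-chain imidazolium ions have a greasy tail and behave as surfactants that enter membranes, whereas the ethyl form and cholinium are small and water-soluble. Choline is a nutrient that animals build into membrane phospholipids and into the neurotransmitter acetylcholine, and that they oxidise to betaine, a methyl donor and osmolyte. The files identify genes by number only. None of these identifiers (0 matched) was found in the RefSeq table of 28335 genes for assembly ASM2063170v1.1, so no name, function or sequence is given for any member. CPM is not scaled by gene length, so values are compared between libraries and not between genes.

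Reads in genes numbered 12502019 to 15539051 per library, and the lowest count of any member in any library was 14 reads. C2mimCl replicate 1 stood apart from the other C2mimCl libraries, with a chi-square per degree of freedom over genes of 203 and 160 against replicates 2 and 3, which differed from each other by 15.9. Results that rest on it are therefore given by library or with and without it. Reads assigned to no gene were 6.32% to 8.39% of reads in controls, 5.83% to 7.61% after C2mimCl, 8.11% to 10.1% after C12mimCl and 5.25% to 5.83% after CholCl. The part of this share in the results below was tested only as a covariate for CholCl against C2mimCl.

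The level and ratio conditions for C2mimCl and CholCl, whatever the C12mimCl value, were met by 69 genes. After C12mimCl 16 of these were at or under 0.5 times control, 13 were at 1.5 times control or more, and the other 40 are the members. The C2mimCl ratio was the condition that left out most, since 302 genes failed it alone and 45 failed the CholCl ratio alone. Nearest to the C2mimCl threshold were Dapma7bEVm008629 inside at 2.02 times control and Dapma7bEVm005855 outside at 1.999. Nearest to the CholCl threshold were Dapma7bEVm004132 inside at 2.01 and Dapma7bEVm001133 outside at 1.89. For the level after C2mimCl, Dapma7bEVm029692 lay inside at 5.05 CPM and Dapma7bEVm023292 outside at 4.47 CPM. For the level after CholCl, Dapma7bEVm004132 lay inside at 7.09 CPM and Dapma7bEVm005308 outside at 3.54 CPM. At the lower C12mimCl bound Dapma7bEVm025197 lay inside at 0.516 times control and Dapma7bEVm012757 outside at 0.487. At the upper bound Dapma7bEVm016545 lay inside at 1.47 and Dapma7bEVm001424 outside at 1.51. Members thus grade into their neighbours at the C2mimCl and C12mimCl bounds.

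**Figure D1:**
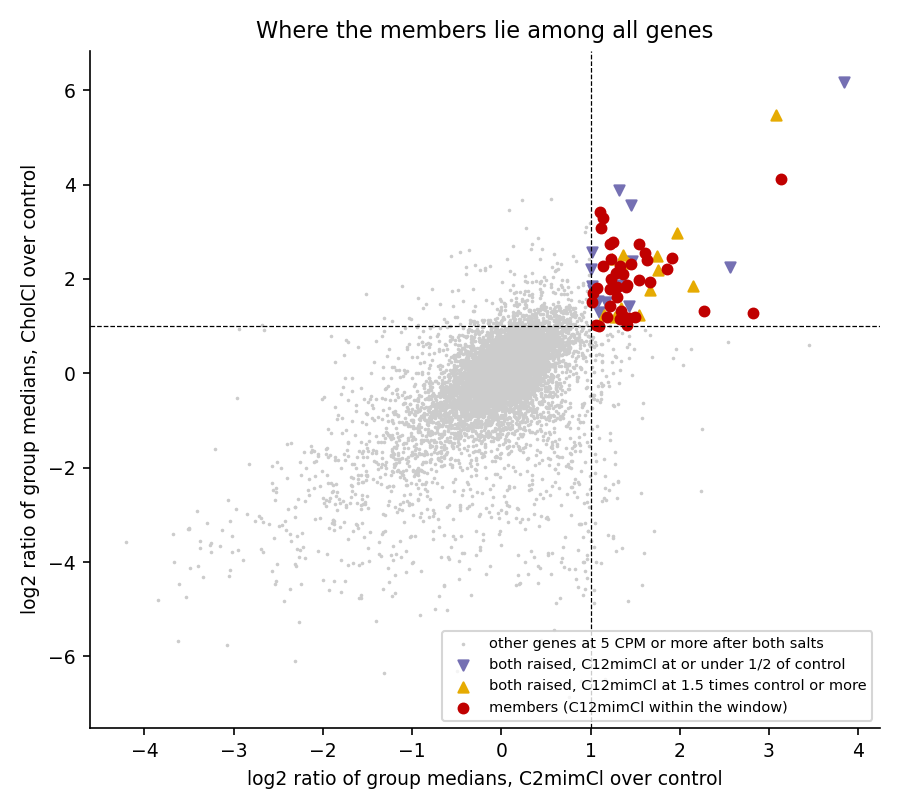
Each point is a gene with a median of 5 CPM or more after both salts, plotted by the log2 ratio of its C2mimCl median (x axis) and CholCl median (y axis) to the control median, each plus 0.1; dashed lines mark 2 times control. The 40 members (red) sit with 16 genes lower after C12mimCl (downward triangles) and 13 higher (upward triangles), and most lie close to the vertical line.

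The members' ratios to control were on the whole higher after CholCl than after C2mimCl. Their median ratio to control was 3.74 after CholCl (range 2.01 to 17.4) and 2.51 after C2mimCl (2.02 to 8.76), with 0.929 after C12mimCl (0.516 to 1.47). At 4 times control or more were 17 members after CholCl and 3 after C2mimCl, and 1 member, Dapma7bEVm006685, reached that after both. After C2mimCl 32 members stayed under 3 times control, and after CholCl 13 did. Over all genes, 638 met the level and the 2 times ratio after CholCl and 380 after C2mimCl, so more genes rose after CholCl in general. No share of all genes is given at 4 or 3 times control, so the difference is not read as particular to the members. Over the 15847 genes tested the median ratio was 0.985 after C2mimCl, 1.00 after C12mimCl and 0.924 after CholCl. Members ran from few reads to many, with control medians of 1.59 to 777 CPM, and none (0) was among the 100 genes with the highest control medians.

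Together the members took 0.205% ± 0.0199 of gene reads in controls, 0.497% ± 0.0214 after C2mimCl, 0.148% ± 0.00903 after C12mimCl and 0.796% ± 0.0289 after CholCl (SD, n = 3 each). Their summed level was 1881, 1744 and 2407 CPM in the controls and 4860, 5331 and 5176 CPM after C2mimCl. It was 1377, 1486 and 1623 CPM after C12mimCl and 8366, 7106 and 8242 CPM after CholCl. The choice itself placed the C2mimCl and CholCl medians of each member above control. The 4 groups did not overlap in the summed level. Dapma7bEVm002353 alone made up 41.3%, 34.4% and 41.5% of it in the controls and 10.8%, 36.6% and 35.3% after C2mimCl, so the even C2mimCl sums hide a replicate 1 of different make-up. Without that gene the C12mimCl sums were 966, 1023 and 1142 CPM and overlapped the controls, at 1104, 1145 and 1408 CPM. The CholCl sums were then 5274, 4432 and 5068 CPM. The C2mimCl sums were 4336, 3379 and 3350 CPM, with C2mimCl replicate 1 the highest of its group. That order rests on Dapma7bEVm018634, since without it as well the C2mimCl sums were 2807, 3145 and 3056 CPM and replicate 1 was the lowest.

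**Figure D2:**
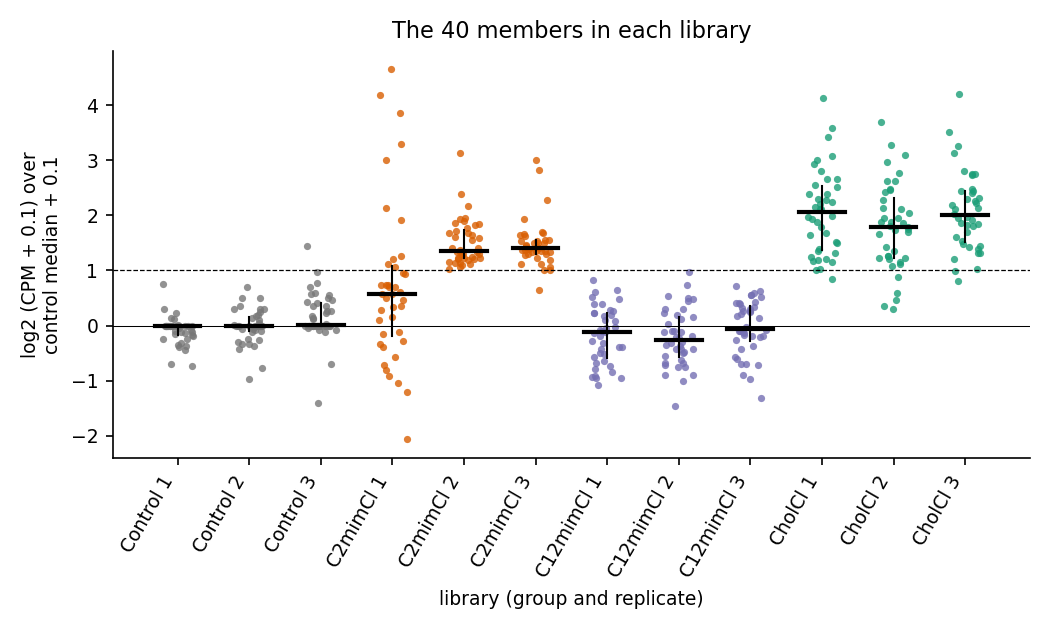
Each point is 1 of the 40 members in 1 library, as log2 of CPM plus 0.1 over the control median plus 0.1; thick bars are medians, thin bars the middle 50% of members, and the dashed line marks 2 times control. C2mimCl replicates 2 and 3 form a tight band, C2mimCl replicate 1 spreads from below the controls to the highest values of the plot, and the CholCl libraries lie highest.

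The fold of the median member over its control median was 2.56 and 2.65 in C2mimCl replicates 2 and 3 but 1.49 in replicate 1. It was 4.15, 3.46 and 3.999 in the CholCl libraries, and 0.919, 0.834 and 0.963 in the C12mimCl libraries. All 40 members were at 2 times control or more in C2mimCl replicate 2 and 39 in replicate 3, against 11 in replicate 1. In CholCl replicates 1, 2 and 3 the numbers were 39, 35 and 38. Of the genes tested, 5.09%, 5.90% and 4.60% were at that level in C2mimCl replicates 1, 2 and 3, and 8.11%, 6.24% and 6.86% in the CholCl libraries. The choice required the C2mimCl median and the CholCl median of each member to reach that level. Replicates 2 and 3 of C2mimCl therefore had to reach it in the 29 members in which replicate 1 did not. The counts of members are thus partly set by the choice, and their difference from the shares of unselected genes was not tested.

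A few members had close values within each of the raised groups. Dapma7bEVm006685 had the highest smaller ratio of the members. It stood at 7.83, 5.22 and 7.09 CPM in controls and at 3.60, 4.39 and 6.31 CPM after C12mimCl. After C2mimCl it stood at 70.9, 62.9 and 57.9 CPM, and after CholCl at 125, 92.5 and 132 CPM. The C2mimCl and CholCl libraries were each above every control and did not overlap each other, and C2mimCl replicate 1 was the highest of its group. Its log2 difference from control was 3.25 (SE 0.243) after C2mimCl and 4.14 (SE 0.252) after CholCl.

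Dapma7bEVm010966 had the narrowest spread, with the highest library over the lowest at 1.17 after C2mimCl and 1.14 after CholCl. It stood at 4.07, 3.90 and 6.07 CPM in controls and 15.6, 13.6 and 15.9 CPM after C2mimCl. After C12mimCl it stood at 3.09, 4.69 and 3.57 CPM, and after CholCl at 20.2, 23.1 and 22.5 CPM. Control and C12mimCl libraries overlapped, and the C2mimCl and CholCl libraries lay above them in separate bands. Dapma7bEVm010820 went from 29.1, 34.0 and 29.9 CPM in controls to 62.5, 66.1 and 68.1 CPM after C2mimCl and 156, 145 and 131 CPM after CholCl, with 24.5, 34.9 and 23.1 CPM after C12mimCl. Dapma7bEVm011937 went from 26.3, 33.4 and 31.2 CPM in controls to 75.1, 65.6 and 62.5 CPM after C2mimCl and 115, 99.4 and 110 CPM after CholCl, with 37.4, 43.5 and 28.9 CPM after C12mimCl. C2mimCl replicate 1 was 1.06 times lower and 1.14 times higher than the nearer of its partners in these genes, and in both the C2mimCl libraries lay between controls and CholCl without overlap.

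Dapma7bEVm008107 and Dapma7bEVm013105, also among the 5 members with the largest smaller ratio, had less even C2mimCl groups. Dapma7bEVm008107 had 8.36, 21.5 and 21.2 CPM after C2mimCl and 25.5, 16.03 and 25.8 CPM after CholCl, against 3.95, 8.13 and 6.62 CPM in controls and 10.4, 4.91 and 7.901 CPM after C12mimCl. Dapma7bEVm013105 had 7.27, 15.1 and 13.7 CPM after C2mimCl and 23.2, 19.3 and 24.5 CPM after CholCl, against 3.82, 5.35 and 4.34 CPM in controls and 4.04, 2.27 and 4.79 CPM after C12mimCl. In both genes every C2mimCl and CholCl library was above every control, with C2mimCl replicate 1 the lowest of them.

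The members with the most reads fell on both sides of this behaviour. Dapma7bEVm002353 had 777, 599 and 999 CPM in controls and 3092, 2674 and 3174 CPM after CholCl. After C2mimCl it had 524 CPM in replicate 1 against 1952 and 1825 CPM in replicates 2 and 3, and after C12mimCl 410, 464 and 481 CPM. Replicate 1 was below all controls while its partners were above them all. Dapma7bEVm001943 showed the same split, with 167 CPM in C2mimCl replicate 1 against 580 and 528 CPM, and 181, 166 and 264 CPM in controls. It had 122, 127 and 171 CPM after C12mimCl and 853, 701 and 708 CPM after CholCl. Dapma7bEVm006301, by contrast, had 589, 753 and 768 CPM after C2mimCl, all above its 280, 306 and 334 CPM in controls, with 245, 239 and 284 CPM after C12mimCl and 1200, 992 and 1086 CPM after CholCl.

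C2mimCl replicate 1 departed in both directions. It was below both partners in 31 members, above both in 8 and between them in 1, where over the genes tested it was below both in 41.9% and above both in 46.1%. It was under 0.5 times the lower partner in 15 members and over 2 times the higher partner in 4, against 10.8% and 12.1% of genes tested. Relative to the controls it lay above all 3 in 23 members, within their range in 7 and below all 3 in 10. The 2 partners differed little, with a median ratio of the higher to the lower of 1.15 over members and 1.14 over genes tested, and at most 1.67 in a member. With replicate 1 included, the median highest-over-lowest ratio in the C2mimCl group was 2.23 over members and 1.63 over genes tested, whereas in the CholCl group it was 1.29 and 1.28. The medians that chose the members constrain these orders and ratios. The values for genes tested are those of unselected genes, and no test was made.

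**Figure D3:**
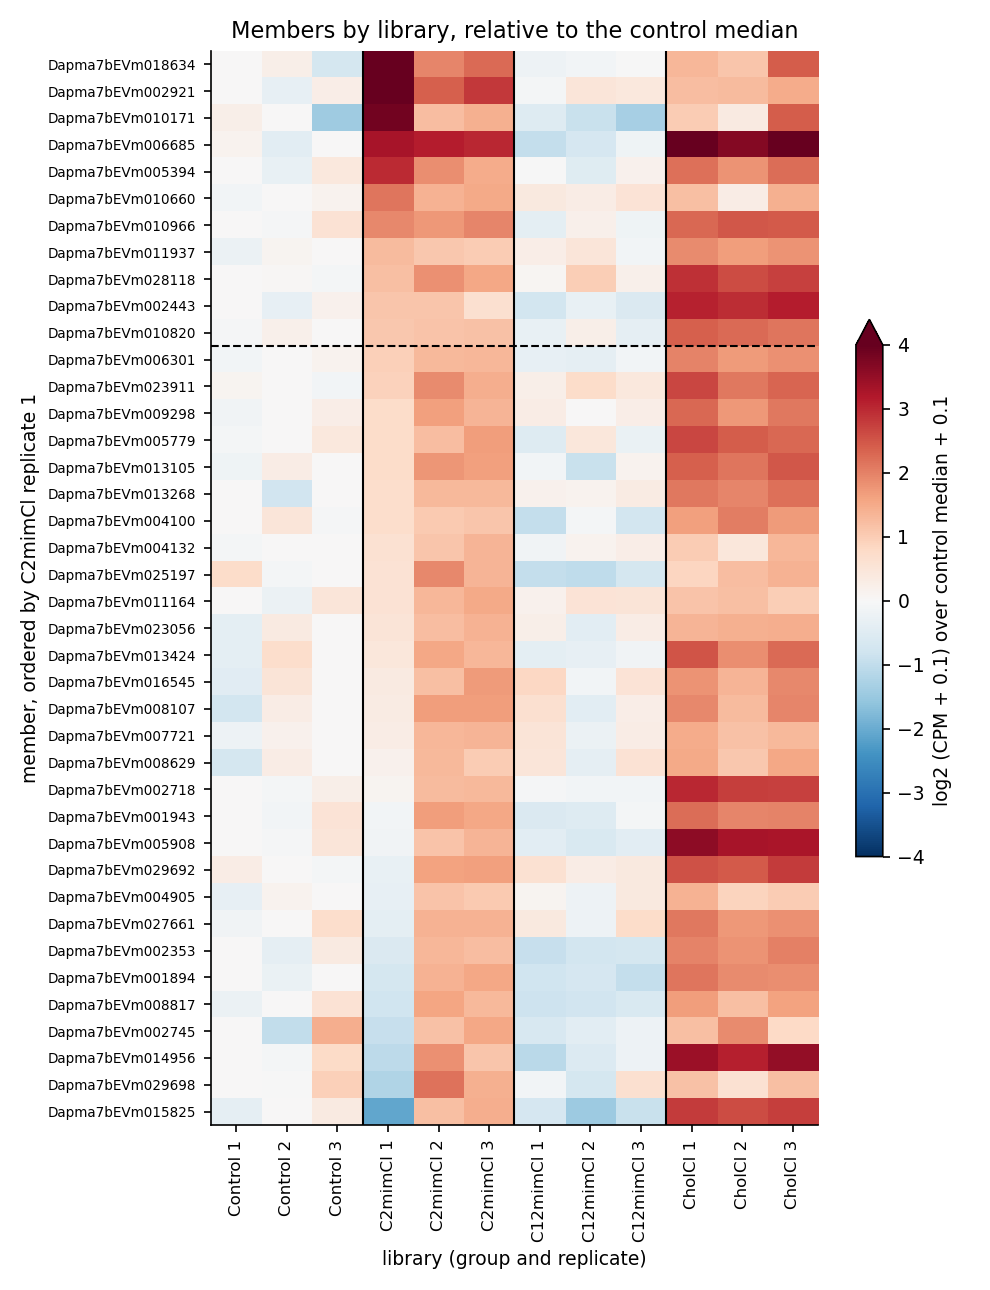
Each row is a member and each column a library, coloured by log2 of CPM plus 0.1 over the control median plus 0.1 (the colour scale ends at 4). Rows are ordered by C2mimCl replicate 1, in which the 11 members above the dashed line were at 2 times control or more and 29 were not.

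The lowest replicate 1 values relative to the partners were those of Dapma7bEVm015825, Dapma7bEVm029698 and Dapma7bEVm014956. Dapma7bEVm015825 had 0.855 CPM in C2mimCl replicate 1 and 9.18 and 10.8 CPM in replicates 2 and 3, 9.72 times lower than the nearer partner with 0.1 CPM added to each. It had 3.02, 3.90 and 5.04 CPM in controls, 2.40, 1.36 and 2.05 CPM after C12mimCl and 27.9, 24.4 and 26.8 CPM after CholCl. Replicate 1 was thus below every control and every C12mimCl library, and the CholCl libraries stood apart above all others. Dapma7bEVm029698 had 16.1 CPM against 167 and 100 CPM, with 37.1, 36.8 and 72.6 CPM in controls. It had 34.3, 22.6 and 57.6 CPM after C12mimCl and 83.5, 56.1 and 85.7 CPM after CholCl, so that CholCl overlapped the controls. Dapma7bEVm014956 had 3.54 CPM against 26.7 and 16.1 CPM after C2mimCl and 7.40, 6.94 and 12.7 CPM in controls. After C12mimCl it had 3.47, 4.99 and 6.38 CPM and after CholCl 80.6, 64.4 and 85.2 CPM.

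The highest replicate 1 values relative to the partners were those of Dapma7bEVm010171, Dapma7bEVm018634 and Dapma7bEVm002921. Dapma7bEVm010171 had 229 CPM in C2mimCl replicate 1 against 36.9 and 41.9 CPM, and 18.3, 15.7 and 5.83 CPM in controls. It had 10.9, 8.39 and 6.23 CPM after C12mimCl and 31.8, 19.9 and 85.2 CPM after CholCl. Its CholCl group was also uneven, with the highest library 4.25 times the lowest (0.1 CPM added to each). Dapma7bEVm018634 had 1529 CPM in C2mimCl replicate 1 against 234 and 294 CPM, and 60.7, 72.0 and 37.6 CPM in controls. It had 53.1, 56.1 and 59.4 CPM after C12mimCl and 151, 132 and 323 CPM after CholCl. Both genes had CholCl replicate 3 as the highest of the CholCl libraries and control replicate 3 as the lowest of the controls. Dapma7bEVm005394 was the remaining member over 2 times its higher partner, with 206 CPM in replicate 1 against 93.1 and 72.8 CPM, 25.7, 20.8 and 34.1 CPM in controls, and 119, 90.0 and 120 CPM after CholCl.

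**Figure D4:**
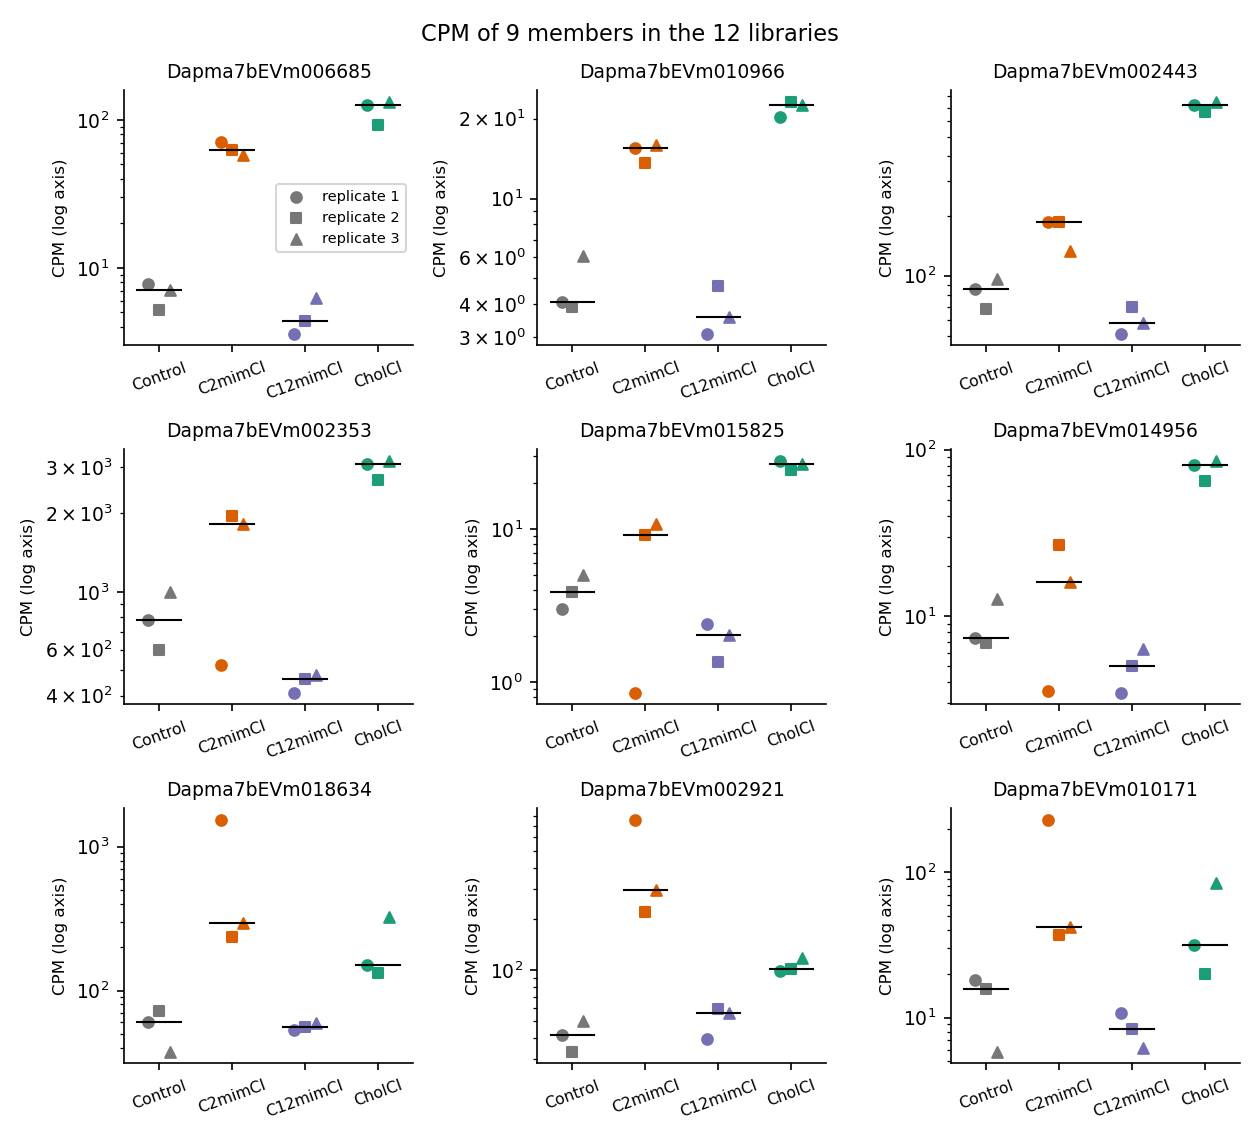
CPM on a log axis in the 12 libraries for 9 members, with marker shape giving the replicate and a bar the group median. The top row shows members with close C2mimCl replicates, the middle row members with C2mimCl replicate 1 (circle) below its partners, and the bottom row members with it above them.

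The choice of members set no condition between CholCl and C2mimCl, although it used the medians of both groups against control. The differences are therefore not independent of it, and the shares of all genes given beside them are those of unselected genes, so nothing about the members as a group is read from the counts. The difference was tested with edgeR's quasi-likelihood test, fitted to the 12 libraries and adjusted over the 15847 genes tested (Benjamini-Hochberg). At an adjusted p below 0.05, 18 of the 40 members were higher after CholCl, where 11.6% of all genes were, and 1 member was lower, where 17.6% of all genes were. Without C2mimCl replicate 1, 17 were higher and 1 lower, with 11.1% and 15.8% of all genes, and 16 of the 18 and the same lower member were called in both fits. The median log2 difference was 0.75 over members and -0.07 over genes tested, or 0.53 and 0.015 without that library. In 31 members the difference was positive and in 9 negative. Without CholCl replicate 1 the number called higher was 10, and the share of all genes called higher fell as well, to 5.64%.

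The 4 members with the smallest p were all higher after CholCl. Dapma7bEVm002443 stood at 186, 186 and 134 CPM after C2mimCl and 724, 666 and 748 CPM after CholCl, against 85.5, 67.7 and 95.9 CPM in controls and 51.1, 69.6 and 57.7 CPM after C12mimCl. The CholCl libraries were far above the C2mimCl libraries, by a log2 difference of 2.10 with SE 0.191 (edgeR, adjusted p = 0.000158, and 9.68e-05 without C2mimCl replicate 1). Dapma7bEVm005908 stood at 4.34, 10.8 and 12.6 CPM after C2mimCl and 58.7, 47.7 and 46.9 CPM after CholCl, with 4.81, 4.69 and 6.70 CPM in controls and 3.53, 3.10 and 3.57 CPM after C12mimCl. Its log2 difference was 2.5 with SE 0.331 (edgeR, adjusted p = 0.000768). This was the largest of the differences called over the members. Dapma7bEVm002718 stood at 8.49, 18.9 and 19.4 CPM after C2mimCl and 64.4, 54.5 and 53.6 CPM after CholCl, a log2 difference of 1.91 with SE 0.265 (edgeR, adjusted p = 0.000986). Its control libraries held 7.90, 7.53 and 9.22 CPM and its C12mimCl libraries 7.63, 7.33 and 7.37 CPM, which overlapped. The difference for Dapma7bEVm010820, whose values are given above, was 1.16 with SE 0.161 (edgeR, adjusted p = 0.000989). The 18 differences called ran from 0.66 to 2.5, with a median of 1.13.

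Dapma7bEVm002921 was the member called lower after CholCl. It stood at 759, 220 and 296 CPM after C2mimCl and 98.9, 101 and 117 CPM after CholCl, against 41.8, 33.2 and 49.98 CPM in controls and 39.4, 58.9 and 56.4 CPM after C12mimCl. It was the only member of the 40 in which every C2mimCl library was above every CholCl library, an order found in 24.1% of genes tested. Its log2 difference was -1.98 with SE 0.401 (edgeR, adjusted p = 0.00617), and -1.28 without C2mimCl replicate 1 (adjusted p = 0.00181). Dapma7bEVm018634, at -1.73 with SE 0.656 (edgeR, adjusted p = 0.0714), was at -0.37 without that library (adjusted p = 0.499). In the opposite order, every CholCl library was above every C2mimCl library in 23 members and in 21.3% of genes tested.

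For several members the data bounded the difference between CholCl and C2mimCl. The 95% interval lay within 2-fold in 7 members, where 42.6% of genes tested had such an interval. It did so in 15 members without C2mimCl replicate 1 (45.7% of genes), in 3 and 2 without replicates 2 and 3, and in 4 and 2 without CholCl replicates 2 and 3. Dapma7bEVm011164 was among the 7, at 22.8, 38.7 and 43.7 CPM after C2mimCl and 34.3, 35.8 and 30.5 CPM after CholCl, with 15.4, 13.02 and 21.8 CPM in controls and a log2 difference of -0.04 (95% interval -0.60 to 0.52). Dapma7bEVm004132 was at -0.06 (95% interval -0.62 to 0.51). Dapma7bEVm006301 was both among the 7 and among the 18 called higher, at 0.66 (95% interval 0.32 to 0.997). For 15 members the difference was neither called nor bounded within 2-fold, so at this depth and replication they cannot be sorted into either class. Without C2mimCl replicate 1 that number was 9. No share of genes tested is given beside these numbers, nor beside the interval counts without other libraries. They therefore do not compare the members with other genes.

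**Figure D5:**
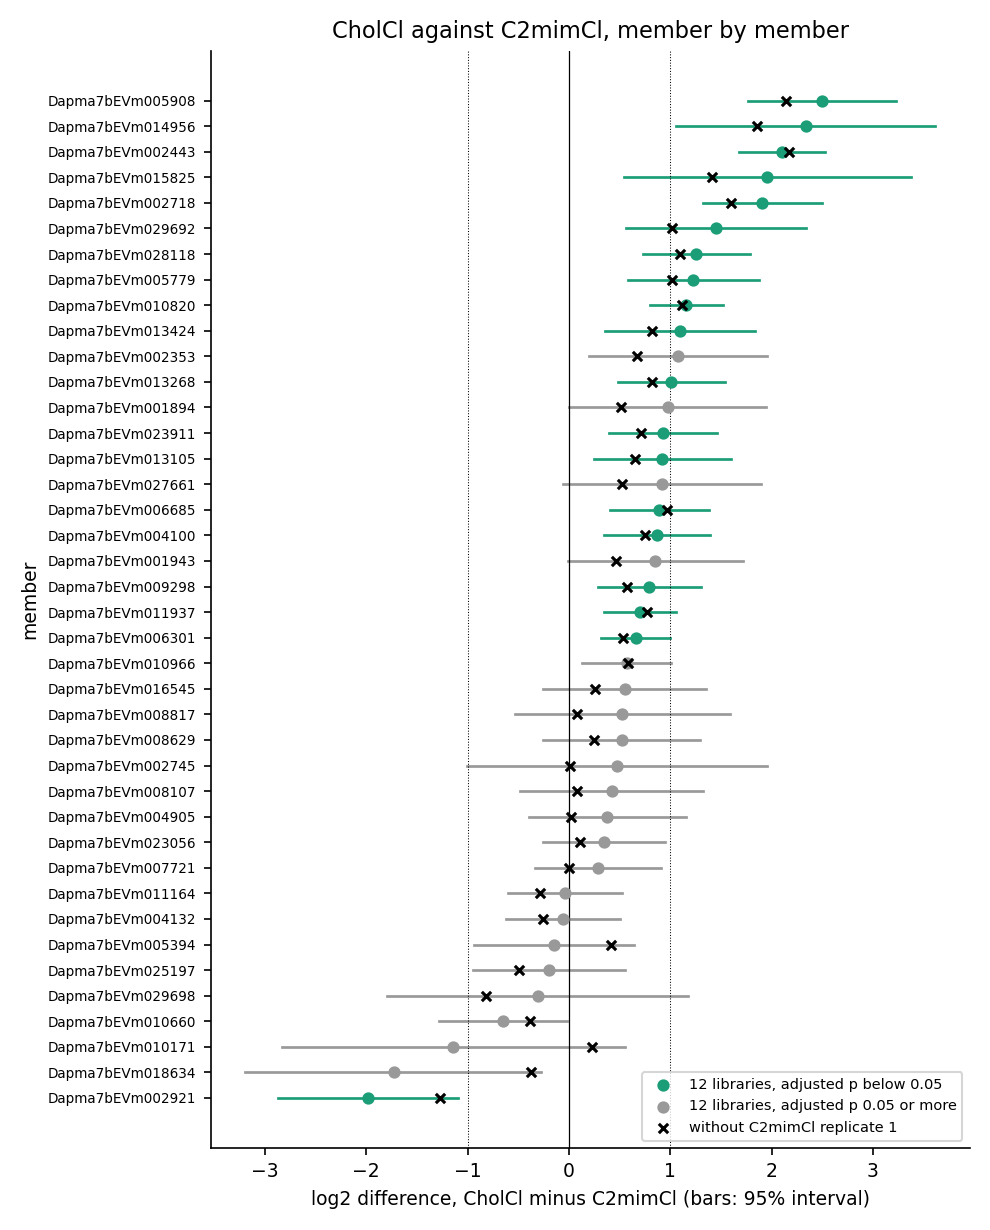
For each member, the point is the log2 difference between CholCl and C2mimCl and the bar its 95% interval in the fit of 12 libraries (green where the adjusted p was below 0.05); crosses give the value without C2mimCl replicate 1 and dotted lines mark 2-fold. The 18 members called higher lie right of 0, Dapma7bEVm002921 lies left, and most crosses lie closer to 0 than their points.

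After C12mimCl the members were near control by their definition. The C12mimCl median was below the control median in 23 members and above it in 17. All C12mimCl libraries were below all controls in 8 members, where 27.8% of genes tested had that order, and above them in 4, where 25.5% did. Dapma7bEVm025197 had 1.58, 1.51 and 1.90 CPM after C12mimCl and 5.37, 2.97 and 3.15 CPM in controls, with 4.76, 12.3 and 8.26 CPM after C2mimCl and 5.76, 7.498 and 8.46 CPM after CholCl. Its C12mimCl libraries were thus below every other library. With Dapma7bEVm004100 it made up the 2 members called lower than control by edgeR's quasi-likelihood test, where 21.5% of genes tested were called lower, and none (0) was called higher, where 13.8% were. Since the C12mimCl range was part of the choice, nothing is read from these counts. With upper-quartile scaling the calls were 3 higher (24.6% of genes) and 0 lower (16.5%). Under it the log2 difference of the median gene went from 0.03 to 0.25. The number called lower was 0 without control replicate 1 (15.5% of genes) or without C12mimCl replicate 1 (15%). It was 8 without C2mimCl replicate 1 (25.4%), Dapma7bEVm002353 among them. It was 1 without C2mimCl replicate 2, C12mimCl replicate 2 or 3, or CholCl replicate 1 or 3 (17.5% to 21% of genes). No member was called higher when a library was left out.

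Against control, edgeR's quasi-likelihood test called 14 members higher after C2mimCl, where 0.776% of genes tested were, and 36 after CholCl, where 15.9% were. The choice used both contrasts, so these counts only describe how far the spread between libraries let a chosen difference be called. After C2mimCl the count was 37 without C2mimCl replicate 1 (5.75% of genes), and 9 and 7 without replicates 2 and 3 (0.369% and 0.252%). Without control replicates 1, 2 and 3 it was 3, 2 and 6 (0.0986%, 0.0741% and 0.289%). All C2mimCl libraries were above all controls in 23 members (8.29% of genes tested), and all CholCl libraries were in 38 (25.2%). Replicates 2 and 3 of C2mimCl were above all controls in 39 members, where 22.7% of genes tested had that order.

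Not every CholCl library was above every control in Dapma7bEVm029698, described above, and Dapma7bEVm002745. The latter had 5.30, 2.64 and 14.6 CPM in controls, 2.75, 12.2 and 15.6 CPM after C2mimCl, 3.34, 3.93 and 4.63 CPM after C12mimCl and 12.3, 19.9 and 9.34 CPM after CholCl. Control replicate 3 reached the level of the raised groups, so the groups overlapped. Neither of these members was called higher than control after CholCl. Dapma7bEVm010171 and Dapma7bEVm025197 were not called either, although all their CholCl libraries were above all controls. Among controls the median highest-over-lowest ratio was 1.52 over members and 1.45 over genes tested, and it exceeded 2 in 4 members and in 20.4% of genes tested.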

How the data were processed

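The deposited files hold raw counts of reads per gene, 1 file per library, with 5 summary rows that were left out of library sizes and tests. Per the submitters' processing notes Trimmomatic 0.39, STAR 2.7.3a and HTSeq were used. Build, annotation and strand setting: not given in the sources used here. Overlapping genes and near-identical copies therefore have uncertain counts. Per the labels' protocols libraries came from a stranded mRNA kit with 150 bp paired-end reads.

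CPM was computed in R 4.3.3 with edgeR 4.0.16 from gene rows with 10 or more reads in total, using TMM factors over the 12 libraries. For tests, filterByExpr (minimum count 10, total 15) left 15847 genes, all 40 members among them. A robust quasi-likelihood model with a mean for each group was fitted to all 12 libraries and adjusted over all genes (Benjamini-Hochberg, below 0.05). It was also run on simulated data with known changes. The simulated libraries shared the same spread per gene, so a departing library like C2mimCl replicate 1 was not covered. Standard errors come from the log2 difference and its F statistic, and 95% intervals use the degrees of freedom of that test. Replicates are vessels stocked from the same cultures.

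The members, lists and tests were chosen with earlier results of these data known. Named members are the 5 with the highest mean CPM, the 5 with the largest smaller ratio, up to 4 called in each direction between CholCl and C2mimCl, the 3 lowest and 3 highest in C2mimCl replicate 1 relative to the nearer partner, the 3 with the narrowest spread, and those at each threshold. Dapma7bEVm025197, Dapma7bEVm004100, Dapma7bEVm004132, Dapma7bEVm011164 and Dapma7bEVm002745 were also described after their values were seen. Alternatives were RLE and upper-quartile scaling, library totals, other filters, offsets and thresholds, limma-voom (limma 3.58.1), DESeq2 1.42.0, a fit of 6 libraries, the replicate number as a block, leaving out each library, and, added after the data were seen, a covariate for the share of reads assigned to no gene.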

Additional observations from a re-analysis of the deposited data

How the results depend on the processing

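The choice of members depended on its thresholds, on C2mimCl replicates 2 and 3, on the control libraries and on the scaling. It gave 218 genes at 1.5 times control, 6 at 3 times, 62 at 2 CPM or more, and 8 when the lowest C2mimCl and CholCl libraries replaced the medians. Leaving out each library gave 25 to 50 genes. The 25 came without C2mimCl replicate 2 and also without replicate 3, each sharing 21 with the 40, and the 50 without replicate 1, sharing 39. Without control replicates 1, 2 and 3 the choice gave 38, 43 and 45 genes, sharing 28, 32 and 34 with the 40. RLE scaling gave 48 genes including all 40, and upper-quartile scaling 49 including 32. Library totals without further scaling gave 30 genes including 28, and means in place of medians 34 including 25. For CholCl against C2mimCl, members called higher ranged from 10 to 18 when each library was left out (5.64% to 12% of genes). Those called lower ranged from 1 to 2 (8.78% to 17.7%), and intervals within 2-fold numbered 2 to 15. DESeq2 called 2 lower (20.2% of genes), the second being Dapma7bEVm018634. Intervals within 2-fold were 4 with upper-quartile scaling. That scaling shifted the median gene from -0.07 to 0.13, raised the higher share of all calls from 39.7% to 62.2% and left 20 members higher (21.8% of genes) and 1 lower. With a covariate for the share of reads assigned to no gene 15 were higher (11.2% of genes) and 1 lower (16.8%). The 5 named differences kept their direction and call under each alternative run. The call closest to the limit was that of Dapma7bEVm002921 in the fit of 6 libraries (edgeR, adjusted p = 0.0466). In that fit 12 members were higher (6.88% of genes) and 1 lower (8.54%), with 5 intervals within 2-fold.

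Against control, members called higher after C2mimCl were 25 by DESeq2 (3.39% of genes) and 1 in the fit of 6 libraries (0.00673%). When each library was left out they were 2 to 37 (0.0741% to 5.75% of genes). After CholCl they were 30 to 38 when each library was left out (9.03% to 20.4% of genes). Members called lower after C12mimCl were 1 by limma-voom (20.2% of genes) and 6 in the fit of 6 libraries (23.1%). When each library was left out they were 0 to 8 (15% to 25.4% of genes lower). No member was called higher after C12mimCl in these fits. The replicate 3 libraries deviated together (r from 0.148 to 0.407 over 6 pairs), but those of replicates 1 and 2 did not do so throughout (r from -0.393 to 0.19), and 4 of 12 libraries correlated best with their own number, so the number is not treated as a pairing. With it as a replicate block, 17 members were higher (10.3% of genes) and 1 lower (16.2%) after CholCl than after C2mimCl. In that fit 4 intervals lay within 2-fold, and 12 members were called after C2mimCl (0.549% of genes higher). With 3 libraries a group, a difference that was not called is not shown to be absent.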

Other observations

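The order of the libraries within a group was uneven over the members. CholCl replicate 2 was the lowest CholCl library in 28 of the 40 members and the highest in 4, where over the genes tested it was lowest in 37.0% and highest in 32.9%. C12mimCl replicate 3 was the highest C12mimCl library in 21 members and the lowest in 4, against 34.3% and 37.4% of genes tested. Control replicate 3 was the highest control in 20 members and the lowest in 6, against 41.1% and 40.1%. Members are not independent of each other, the medians that chose them constrain these orders, and no test was made.

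The 11 members at 2 times control or more in C2mimCl replicate 1 and the 29 under it were also set side by side. The median ratio to control after CholCl was 4.61 in the former and 3.68 in the latter, and after C12mimCl 0.924 and 0.933. In C2mimCl replicates 2 and 3 the medians over the former were 3.30 and 2.83 and over the latter 2.51 and 2.58. This split was made after the values were seen.

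Genes with high ratios to control after both salts that lay outside the C12mimCl range are given here, picked after their values were seen. Dapma7bEVm029490 was at 14.3 times control after C2mimCl and 72.7 times after CholCl, with 0.444 after C12mimCl, where its libraries were at 0.883, 3.93 and 0.304 CPM. Dapma7bEVm001479 was at 8.48 and 44.3 times control, with 1.89 after C12mimCl. Its C2mimCl replicate 1 was at 55.1 CPM against 174 and 146 CPM in the other C2mimCl libraries and 17.0, 17.2 and 33.3 CPM in controls.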
